A study of Caenorhabditis elegans with 8 samples.

Results

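The gene *folr-1* encodes a worm homologue of the vertebrate folate receptors and is represented by 1 of the 50606 RefSeq transcripts counted in whole *C. elegans* embryos (NM_077263, the only transcript that carries the name). It was chosen by its difference between *ztf-11* KD and control embryos, where it stood near the top of all transcripts. That difference is therefore described here and not tested, and tests are given only for what did not choose the gene: its variation between cultures of one condition, and the other genes of folate metabolism and of its neighbourhood. Vertebrate folate receptors are membrane-anchored proteins that bind folate outside the cell and carry it in by endocytosis, next to a separate route through the reduced folate carriers. Worms take their folates from the bacteria they eat, and FOLR-1 is known in this animal for the response of germ cells to bacterial folates. Inside the cell, folates carry the one-carbon units used to make thymidylate, purines and methionine.

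RNA-seq was performed on 8 embryo cultures, 4 with knockdown of the Myt1 family zinc-finger gene *ztf-11* and 4 controls. Mothers were fed for 64 h, from the first larval stage, on bacteria that made *ztf-11* dsRNA (*ztf-11* KD) or carried the empty L4440 vector (control), and their eggs were then kept for 3 h in M9 buffer. All 8 cultures had the same genotype, *ztf-11(wy1100); eri-1(mg366); oxIs322; ynIs49*, in which *ztf-11* carries a GFP tag, the *eri-1* allele makes the animals hypersensitive to RNAi, and the last 2 elements are transgenes. Each library came from an independent culture and holds the RNA of all tissues of many embryos, so more cells that make a transcript and more transcript per cell cannot be told apart.

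The libraries held between 39343105 and 45609675 counts, and no pair of libraries of one condition agreed within counting error. CPM (counts relative to library size) were computed on library sizes scaled by TMM, a normalization that assumes most transcripts do not differ. The targeted gene *ztf-11* averaged 11.3 ± 2.39 CPM in *ztf-11* KD embryos, against 44.2 ± 16.6 CPM in control embryos (SD, n = 4 each), and no *ztf-11* KD library reached the lowest control. The knockdown was thus partial in whole embryos. Over 14328 transcripts with enough counts, the quasi-likelihood test of edgeR with Benjamini-Hochberg adjustment called 0 at an adjusted p under 0.1 (0%). At an unadjusted p under 0.05 it called 1261 as higher in *ztf-11* KD (8.8%) and 571 as lower (3.99%), while DESeq2 called 435 at an adjusted p under 0.1.

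In *ztf-11* KD embryos *folr-1* had 997, 960, 683 and 485 counts in replicates 1 to 4, a sum of 3125. In control embryos it had 69, 21, 137 and 108 counts, a sum of 335. The total counts of the libraries differed far less than these values, so scaling changed the picture little. Relative to library size, *folr-1* reached 25.4, 22.6, 17.1 and 10.7 CPM in *ztf-11* KD embryos, against 1.51, 0.498, 3.03 and 2.67 CPM in control embryos. Every *ztf-11* KD library lay above every control library, as it did for 517 of the 14328 transcripts (3.61%), and 352 showed the opposite order (2.46%). Since this order is part of why *folr-1* was chosen, nothing is read from it.

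**Figure D1:**
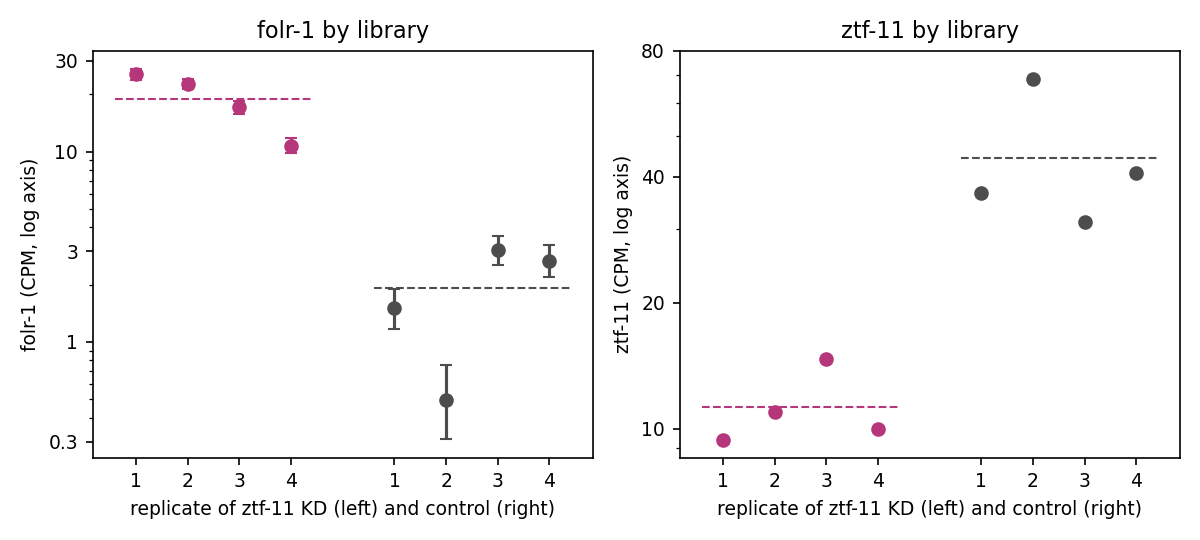
CPM of *folr-1* (left) and of *ztf-11* (right) in each library on log axes, with *ztf-11* KD libraries in magenta and control libraries in grey. Dashed lines are group means and bars on *folr-1* are 95% counting intervals. The 4 *ztf-11* KD libraries have 10.7 to 25.4 CPM of *folr-1*, above the 0.498 to 3.03 CPM of the 4 controls, whereas *ztf-11* is lower in the *ztf-11* KD libraries.

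The mean level of *folr-1* was 19.0 ± 6.49 CPM in *ztf-11* KD embryos, against 1.93 ± 1.15 CPM in controls (SD, n = 4 each), a ratio of 9.84. The fitted log2 fold change was 3.30 with a standard error of 0.52, or 9.83-fold. The size of the difference depends strongly on which cultures are set against each other. The lowest *ztf-11* KD library had 3.54 times the CPM of the highest control, and the highest *ztf-11* KD library had 51.1 times that of the lowest control. Counting error alone was much smaller than this: the exact Poisson 95% interval was 9.80 to 11.7 CPM in the lowest *ztf-11* KD library and 2.55 to 3.59 CPM in the highest control, and it covers counting error only.

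Cultures of one condition also differed from each other. The highest library had 2.37 times the CPM of the lowest within *ztf-11* KD embryos, and 6.10 times within control embryos, where replicate 2 was lowest at 0.498 CPM. The SD of log2 CPM was 0.55 among *ztf-11* KD cultures and 1.14 among controls. For comparison, transcripts of like abundance were taken in each group, with a mean CPM within 2-fold of that of *folr-1* there. Among 3094 such transcripts in *ztf-11* KD embryos the median SD was 0.24, and 87.6% of them varied less than *folr-1*. Among 2507 such transcripts in control embryos, where *folr-1* was rarer, the median SD was 0.63, and 84.2% varied less.

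By p, *folr-1* ranked 4 of the 14328 transcripts tested, after *ztf-11* itself, *clec-4*, which encodes a C-type lectin, and the uncharacterized gene *E04F6.4*. *clec-4* averaged 37.8 ± 7.57 CPM in *ztf-11* KD and 11.7 ± 3.22 CPM in control embryos (log2 fold change 1.69), and *E04F6.4* averaged 34.97 ± 9.55 CPM in *ztf-11* KD and 11.9 ± 2.48 CPM in control embryos (1.55). The next in rank were *phat-6*, a gene of the pharyngeal gland, at 4.77 ± 2.199 CPM in *ztf-11* KD and 0.334 ± 0.312 CPM in control embryos (3.82), and the noncoding *srpr-2.2*, at 0.324 CPM in *ztf-11* KD and 4.75 CPM in control embryos (−3.86). They were followed by the lectin gene *clec-71* (log2 fold change 3.95), the thymosin gene *tth-1* (0.76) and the globin gene *glb-11* (0.87). For each of these genes the groups did not overlap, and the adjusted p in edgeR's quasi-likelihood test lay between 0.262 and 0.359, above the threshold of 0.1.

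By size, *folr-1* ranked 29 among the higher transcripts, or 33 by absolute log2 fold change. Of the 28 transcripts with a larger log2 fold change, 26 had a lower mean CPM than *folr-1*, and 9 had all *ztf-11* KD libraries above all controls. Examples of the 9, named after their values were seen, are the F-box gene *fbxa-12* at 1.34 CPM in *ztf-11* KD and 0.0505 CPM in control embryos, and *K11H12.10* at 0.399 CPM in *ztf-11* KD and 0.0295 CPM in control embryos. At an abundance within 2-fold of *folr-1* (mean of 10.4 CPM over the 8 libraries), 5 transcripts had a larger log2 fold change: *tag-293*, *fipr-4*, *T02B11.4*, *phat-7* and *fipr-3*. Of these *fipr-3* alone had no overlap between groups, at 10.0 CPM in *ztf-11* KD and 0.956 CPM in control embryos. In log2 CPM, computed with a prior count of 2, the lowest *ztf-11* KD library exceeded the highest control by 1.81 for *folr-1*. This gap was the widest of all higher transcripts, and in either direction only *ZK105.8*, lower in *ztf-11* KD, had a wider one (1.83). On CPM without a prior count *folr-1* came after *K11H12.10*, whose lowest *ztf-11* KD library had 3.59 times the CPM of its highest control, on few counts (8.88 per library).

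**Figure D2:**
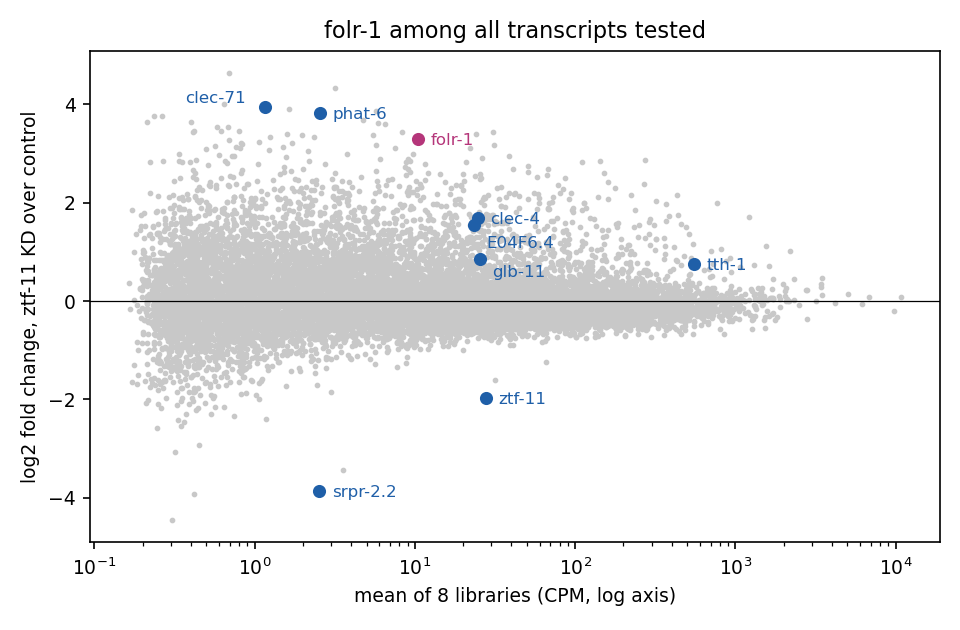
Log2 fold change of *ztf-11* KD over control (vertical) against the mean CPM of the 8 libraries (horizontal, log axis) for the 14328 transcripts tested, in grey. *folr-1* is in magenta at 10.4 CPM and 3.30, and the genes next to it in rank by p are in blue. Of the 28 transcripts above it, 26 lie to its left.

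*folr-1* was compared with a stage score, meant to follow developmental progress. It is the mean log2 CPM of 20 genes of late embryos minus that of 16 genes of early embryos. The late genes are muscle, gut, cuticle and neuronal genes, the early ones maternal factors and early zygotic regulators. The paper reports sarcomere genes and epidermal collagen genes as higher after *ztf-11* knockdown. The score may thus in part hold the knockdown itself, which was not tested. Among the late genes tested, those of muscle had log2 fold changes from 0.72 (*myo-3*) to 1.61 (*myo-1*). Those of the cuticle ran from −0.12 (*sym-1*) to 0.094 (*lpr-3*), with the collagen gene *dpy-7* at −0.028. The score was 3.82, 4.02, 3.19 and 4.47 in *ztf-11* KD cultures 1 to 4, and 3.23, 1.35, 3.22 and 2.96 in control cultures 1 to 4. The mean was 3.87 ± 0.53 in *ztf-11* KD embryos, against 2.69 ± 0.90 in controls (SD, n = 4 each), a difference of 1.18 (exact permutation test over 70 assignments, two-sided, p = 0.0857). The gene lists behind the score hold this same difference by construction, so they are no separate evidence of it. Of the 20 late genes 16 were higher in *ztf-11* KD, with a median log2 fold change of 0.62, and 15 of the 16 early genes were lower (median −0.58), where the median over all transcripts was −0.0088. Within groups, the score followed the main axis of variation between cultures (r = 0.902 with a first component that held 54.4% of the variance).

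Each *ztf-11* KD library was set beside the control nearest to it in score, as a description. *ztf-11* KD culture 3 was the only one with a score inside the range of the controls. Its *folr-1* level was 17.1 CPM at a score of 3.19, against 3.03 CPM in control culture 3 at a score of 3.22, a ratio of 5.63. The other *ztf-11* KD cultures had no control of like score. With scores of 3.82, 4.02 and 4.47 they lay beyond control culture 1, the nearest at 3.23 (1.51 CPM), and had 16.9, 15.01 and 7.13 times its level in cultures 1, 2 and 4. Control cultures 1 and 3 had nearly the same score, at 1.51 and 3.03 CPM of *folr-1*. Every ratio given here, that of culture 3 included, thus depends on which of these controls was taken. The *ztf-11* KD culture with the highest score, replicate 4, had the lowest *folr-1* level of its group.

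**Figure D3:**
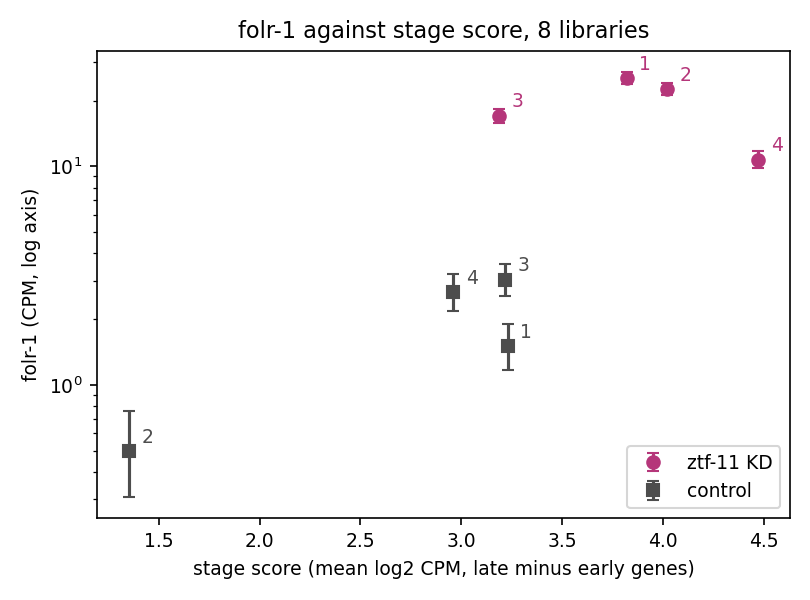
*folr-1* CPM (log axis, bars are 95% counting intervals) against the stage score, a difference of mean log2 CPM, for the 4 *ztf-11* KD libraries (magenta circles) and the 4 control libraries (grey squares), numbered by replicate. *ztf-11* KD culture 3 and control cultures 1 and 3 lie between 3.19 and 3.23 in score, at 17.1 CPM of *folr-1* in the *ztf-11* KD culture and 1.51 and 3.03 CPM in the controls. Control culture 2 has both the lowest score and the lowest *folr-1*.

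With the stage score as a covariate in the fit, the log2 fold change of *folr-1* was 2.68 with a standard error of 0.57, or 6.396-fold, against 3.30 without it. Its rank by p was then 73, and its rank by fold change 21. Of the genes next to it in rank, the higher ones had smaller values under this fit, such as 1.23 instead of 1.69 for *clec-4*, 2.54 instead of 3.82 for *phat-6* and 2.63 instead of 3.95 for *clec-71*. Of the lower ones, *ztf-11* had −1.33 instead of −1.97, whereas *srpr-2.2* had a larger value, −5.05 instead of −3.86, and both passed the threshold there (edgeR adjusted p = 0.0893 each). With 3 of 4 *ztf-11* KD cultures beyond the range of the controls, the stage score and the knockdown are partly confounded. Their shares in the value of *folr-1* cannot be told apart.

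The relation of *folr-1* to stage was then tested only within groups, on deviations from the group means over the 8 libraries, with exact permutation of the libraries inside each group (576 arrangements) and adjustment over 4 relations. For the stage score Pearson's r was 0.60 (two-sided exact permutation p = 0.219, adjusted 0.292) and Spearman's rho 0.24 (p = 0.613, adjusted 0.719). The relation depended on single cultures. Without control culture 2 and *ztf-11* KD culture 4, the libraries farthest from the median score, r was 0.29. It was −0.38 without control culture 2 alone (exact permutation p = 0.5) and 0.88 without *ztf-11* KD culture 4 alone (exact permutation p = 0.0556, neither adjusted). Among the 4 control cultures r was 0.90 and among the 4 *ztf-11* KD cultures −0.42, which is a description at this size.

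The other 3 relations gave no value past the threshold either. Against the level of *ztf-11* itself r was −0.73 (exact permutation p = 0.104, adjusted 0.212) and rho −0.67 (p = 0.127, adjusted 0.254), and without control culture 2 and *ztf-11* KD culture 1 r was 0.11. Against the library total r was −0.69 (exact permutation p = 0.106, adjusted 0.212) and rho −0.71 (p = 0.0729, adjusted 0.254). This relation had like values among the *ztf-11* KD cultures (−0.74) and among the controls (−0.71), and r was −0.60 without control culture 4 and *ztf-11* KD culture 1. Against the summed vitellogenin transcripts, a measure of RNA from the mothers' intestine, r was −0.016 (exact permutation p = 0.957, adjusted 0.957) and rho −0.14 (p = 0.719, adjusted 0.719), and r was −0.15 without *ztf-11* KD cultures 1 and 4. The vitellogenin transcripts used were near the limit of detection throughout. The 4 genes matched summed to 0.204 to 0.683 CPM in *ztf-11* KD and 0.960 to 1.19 CPM in control embryos. Of them *vit-2* and *vit-6* were listed at 0 and *vit-4* averaged 3.625 counts per library, so the sum rests mainly on *vit-5*.

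Some marker genes of differentiated tissues differed between the groups, and their part in the value of *folr-1* was not tested. The 11 pharyngeal markers summed to 941 to 2806 CPM in *ztf-11* KD embryos and to 435 to 1430 CPM in controls. All 11 had a positive log2 fold change, and 8 had an unadjusted p under 0.05 (72.7%, against 8.8% of all transcripts). The 10 intestinal markers summed to 2707 to 5685 CPM in *ztf-11* KD and to 1449 to 3548 CPM in control embryos, with 7 higher and 3 at an unadjusted p under 0.05. Both tissues thus had overlapping sums with higher medians in the *ztf-11* KD embryos. The sums follow their most abundant genes, such as *act-5* and *myo-2*. The intestinal *elt-2*, *elt-7* and *ges-1* had log2 fold changes of −0.0041, −0.23 and −0.049, and the pharyngeal *pha-4* one of 0.075. Genes such as *act-5*, *myo-1* and *myo-2* are also in the late list of the stage score, so these markers are not independent of it. The 6 germ line genes tested were all lower (median log2 fold change −0.41), none at an unadjusted p under 0.05. Their list summed to 165 to 185 CPM in *ztf-11* KD and 171 to 357 CPM in control embryos. Control culture 2 was highest for *meg-1*, *nos-2* and *pie-1*, and the last 2 are also in the early list of the stage score. The 5 epidermal genes tested had a median of −0.0047 and the 6 neuronal genes one of 0.45, with none at an unadjusted p under 0.05 in either set. Most of these epidermal and neuronal genes are also in the late list of the stage score. Sperm transcripts, a sign of RNA from the adults, summed to 0.949 to 4.27 CPM in *ztf-11* KD and 1.55 to 3.01 CPM in control embryos.

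The genes that take up, convert and use folate were compared next, to place *folr-1* within its pathway. The list held 38 genes other than *folr-1*, of which 35 were matched to a transcript and 26 had enough counts. Of these 11 had a positive and 15 a negative log2 fold change, with a median of −0.054. At an adjusted p under 0.1, 0 of the 26 passed. At an unadjusted p under 0.05, 1 passed as higher (3.85%, against 8.8% of all transcripts) and 0 as lower (against 3.99%). The shares of called genes were thus no larger than over all transcripts.

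Among the genes of folate uptake, *folt-2*, a relative of the reduced folate carrier gene *folt-1*, was the one at an unadjusted p under 0.05. It had 13.2, 20.1, 10.3 and 18.2 CPM in *ztf-11* KD embryos, against 6.39, 1.35, 6.80 and 1.95 CPM in control embryos. The groups did not overlap, as for *folr-1*. Its mean was 15.4 ± 4.51 CPM in *ztf-11* KD embryos, against 4.12 ± 2.87 CPM in controls (SD, n = 4 each). The log2 fold change of 1.90, with a standard error of 0.52, did not pass the threshold (edgeR's quasi-likelihood test, Benjamini-Hochberg adjusted p = 0.359). It ranked 173 by p. With the stage score as a covariate, the log2 fold change of *folt-2* was 0.88 (adjusted p = 0.491 in edgeR's quasi-likelihood test), so that on the log2 scale it dropped further than that of *folr-1*, whose value moved between 3.30 and 2.68. The difference between these 2 drops was not tested.

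*folt-1*, the reduced folate carrier of the worm, did not share this order. It had 5.48, 8.01, 9.37 and 9.51 CPM in *ztf-11* KD embryos, against 6.74, 6.64, 10.9 and 6.44 CPM in control embryos, and the groups overlapped (log2 fold change 0.077, standard error 0.27, edgeR adjusted p = 0.903). The transcript used for the third member, *folt-3*, was too rare to test, at 0.305 CPM in *ztf-11* KD and 0.199 CPM in control embryos. The transcripts used for genes that change the glutamate tail of folate were rare as well. With 1 transcript used per gene this need not hold for the gene: the transcript used for the epidermal marker *elt-1* was also listed at 0. *F25B5.6*, which encodes a folylpolyglutamate synthase, had 0.408, 0.141, 0.175 and 0.266 CPM in *ztf-11* KD embryos, against 0.524, 0.972, 0.399 and 0.395 CPM in control embryos (log2 fold change −1.20, standard error 0.62, edgeR adjusted p = 0.413). Of the carboxypeptidase genes, *gcp-2.1* averaged 2.38 counts per library and was not tested, and *gcp-2.2* was listed at 0.

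Among the genes tested, those of enzymes that convert and use folate differed little between groups. The transcripts used for *mtrr-1*, *sams-3*, *sams-4*, *sams-5* and *K07E3.4* were listed at 0 and not tested. Another transcript of *sams-3* and another of *sams-4* could be tested, and their groups overlapped. Their log2 fold changes were 0.11 for *sams-3* (edgeR adjusted p = 0.847) and −0.18 for *sams-4* (edgeR adjusted p = 0.761). The 10 genes of folate interconversion tested had a median log2 fold change of −0.046. They include *dhfr-1*, dihydrofolate reductase (−0.27, standard error 0.26), *tyms-1*, thymidylate synthase (−0.45, standard error 0.26), and *mthf-1*, methylenetetrahydrofolate reductase (−0.22). *tyms-1* averaged 60.8 ± 9.26 CPM in *ztf-11* KD and 83.2 ± 35.7 CPM in control embryos, with control culture 2 alone at 137 CPM. With the stage score as a covariate its log2 fold change was 0.26, of the opposite sign. The 7 genes of the methionine cycle tested had a median of −0.060. Among them *metr-1*, methionine synthase, had −0.092 and *ahcy-1*, which clears S-adenosylhomocysteine, −0.24, at a mean of 1044 CPM in *ztf-11* KD and 1236 CPM in control embryos. *cth-2*, a cystathionine gamma-lyase gene, had 0.43, at 299 CPM in *ztf-11* KD and 221 CPM in control embryos. The 6 purine synthesis genes had a median of −0.054, between −0.16 for *pacs-1* and 0.33 for *atic-1*. Outside the uptake group the values of the 1 transcript used per gene ran from −0.45 (*tyms-1*) to 0.49 (*cbs-2*), below the 3.30 of *folr-1*. A further, rarer transcript of *atic-1* (NM_001027930) had 1.25 with a standard error of 0.56, at 0.919 CPM in *ztf-11* KD and 0.383 CPM in control embryos (edgeR adjusted p = 0.393), and its groups did not overlap.

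**Figure D4:**
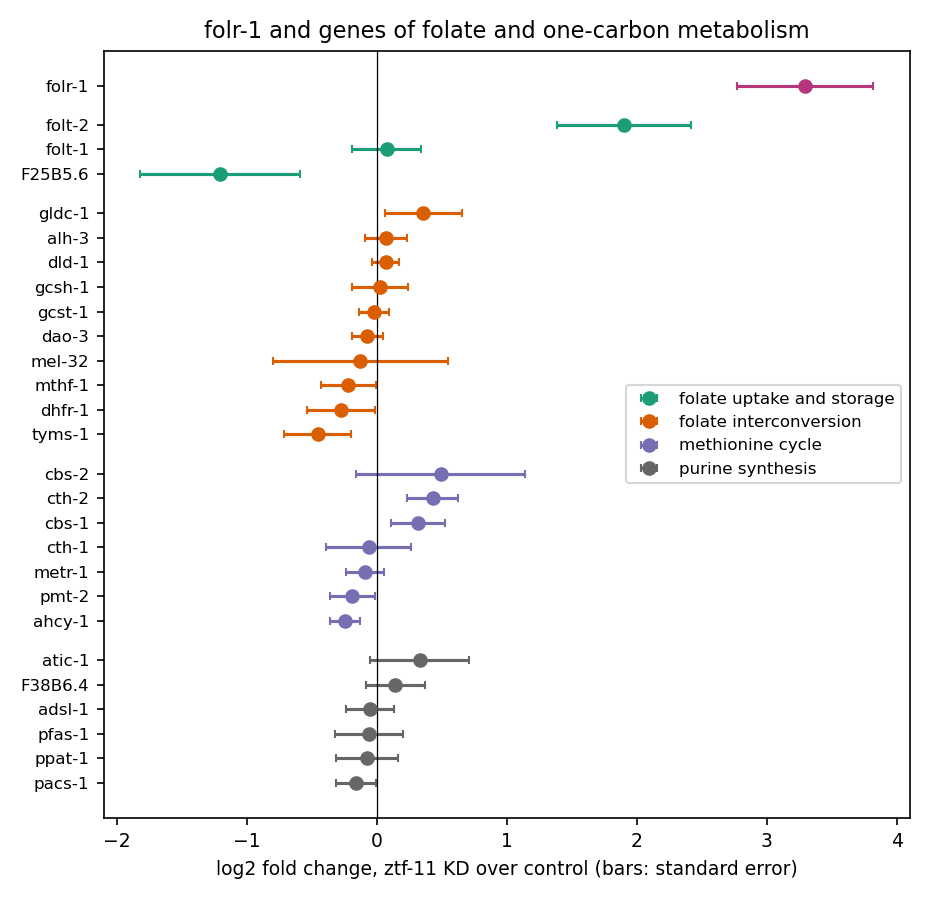
Log2 fold change of *ztf-11* KD over control with its standard error for *folr-1* (top, magenta) and the 26 tested genes of folate uptake and storage, folate interconversion, the methionine cycle and purine synthesis. *folr-1* lies at 3.30 and *folt-2* at 1.90, whereas the genes outside the uptake group, with 1 transcript each, lie between −0.45 and 0.49.

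The position of *folr-1* was examined through its neighbours, in the order of the RefSeq table of assembly WBcel235. The gene lies on chromosome X, and 0 annotated genes overlap it there. Of the 5 protein-coding genes on each side, 7 could be tested and 1 of them, *F21G4.1*, had an unadjusted p under 0.05, where 8.8% of all transcripts were called as higher and 3.99% as lower. *F21G4.1*, the farthest on its side, had 36.0, 36.8, 31.98 and 41.9 CPM in *ztf-11* KD embryos, against 20.8, 16.2, 25.2 and 16.9 CPM in control embryos. Its groups did not overlap, and its log2 fold change was 0.89 with a standard error of 0.18 (edgeR adjusted p = 0.359, rank 22 by p). DESeq2, which called 435 transcripts at an adjusted p under 0.1, called *F21G4.1* as well (adjusted p = 0.00892).

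The genes nearest to *folr-1* did not share its order. *htt-1*, the huntingtin homologue next to it on one side, averaged 56.3 CPM in *ztf-11* KD and 61.9 CPM in control embryos (log2 fold change −0.14, standard error 0.15). *C17G1.2*, next to it on the other side, was too rare to test at 0.227 CPM in *ztf-11* KD and 0.0678 CPM in control embryos. *ugt-23*, a gene of the UDP-glucuronosyltransferase family just beyond *C17G1.2*, averaged 5.51 ± 0.45 CPM in *ztf-11* KD and 7.18 ± 1.24 CPM in control embryos (−0.38, edgeR adjusted p = 0.433). For *ugt-23* all *ztf-11* KD libraries lay below all controls, the reverse of *folr-1*. The remaining 4 tested neighbours had log2 fold changes of 0.34 (*F21G4.3*), 0.085 (*phf-34*), 0.64 (*F21G4.5*, standard error 0.66, and −1.12 with the stage score as a covariate) and 0.11 (*C17G1.5*), and *nra-3* and *tsp-21* were not matched to a transcript. On chromosome X as a whole 5.16% of 1859 transcripts had all *ztf-11* KD libraries above all controls, against 3.61% of all, and the median log2 fold change was 0.11 on both X and V.

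**Figure D5:**
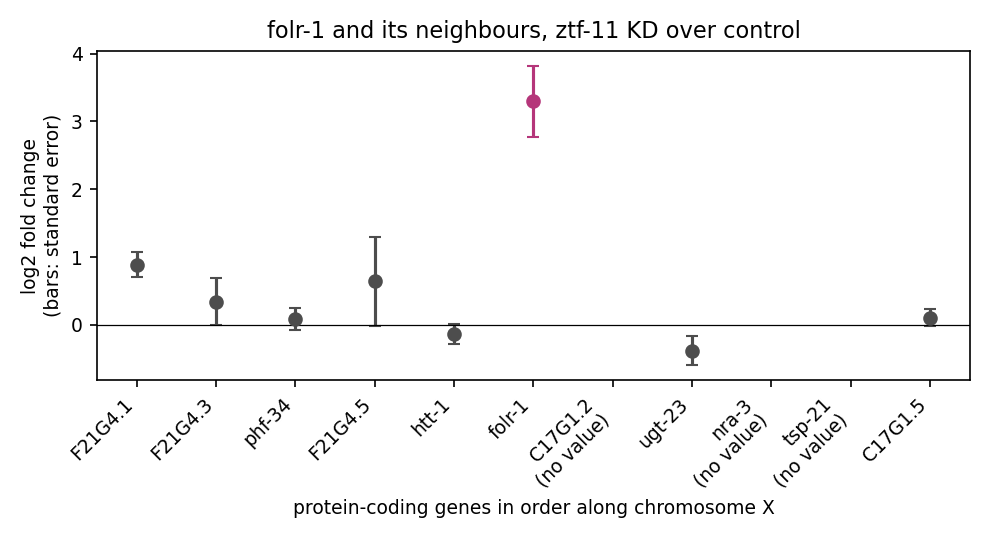
Log2 fold change of *ztf-11* KD over control, with its standard error, for *folr-1* (magenta, 3.30) and the 5 protein-coding genes on each side of it in their order along the chromosome (grey). *F21G4.1* at 0.89 is the only tested neighbour at an unadjusted p under 0.05, and the adjacent *htt-1* lies at −0.14.

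Other transcripts followed the pattern of *folr-1* over the libraries. By Pearson correlation of log2 CPM over all 8 libraries, which includes the difference that chose *folr-1*, the 10 most alike were *prk-2* (r = 0.981), *ced-6* (0.977), *acdh-5* (0.974), *cutl-10* (0.972), *R11G10.4* (0.971), *gpcp-2*, *rei-2*, *F32H2.8* and the unnamed NM_171110 (0.964 each) and *T05B4.10* (0.962). All 10 had every *ztf-11* KD library above every control, against 3.61% of all transcripts. Their choice by likeness to *folr-1* favours this order, so nothing is read from it. *prk-2*, a Pim-type kinase gene, had 123, 113, 97.9 and 88.8 CPM in *ztf-11* KD embryos, against 63.3, 38.7, 71.1 and 64.6 CPM in control embryos. It thus had the same order of libraries as *folr-1* within the *ztf-11* KD group and likewise its lowest control in culture 2, over a much smaller range (log2 fold change 0.83). *ced-6*, which encodes an adaptor for the engulfment of dying cells, averaged 126 ± 2.14 CPM in *ztf-11* KD and 87.7 ± 5.69 CPM in control embryos (0.52). *acdh-5*, of the acyl-CoA dehydrogenase family, averaged 2.91 ± 0.65 CPM in *ztf-11* KD and 0.614 ± 0.334 CPM in control embryos (2.24), and *T05B4.10* had the value closest to that of *folr-1* (3.28).

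When the group means were removed, so that only differences between cultures of one condition counted, the 5 most alike were *F22E5.12* (r = 0.989), *F29G9.19* (0.976), *prk-2* (0.963), *col-35* (0.963) and *sra-11* (0.958). Only *prk-2* was on both lists. Apart from *prk-2*, these transcripts differed little between the conditions, with log2 fold changes of −0.12 (*F22E5.12*), 0.28 (*F29G9.19*), 0.0097 (the collagen gene *col-35*) and 0.32 (*sra-11*). *F22E5.12*, *col-35* and *sra-11* averaged only 17.5, 13.4 and 24.0 counts per library, and *col-35* and *sra-11* were at 0 in control culture 2. The correlations are descriptions over 8 libraries that differ in depth and stage, and all transcripts of a library share both. The highest of 14328 values are also high by selection.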

How the data were processed

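The deposited files hold raw counts, the number of reads on each RefSeq transcript of a library. Per the labels and the study's methods, stranded mRNA libraries were trimmed, mapped to *ce10* with Tophat2, and uniquely mapped reads were counted with featureCounts. Versions, the strand setting and the treatment of reads over several transcripts are not given in the sources used here. Values are for transcripts, and the counts carry no normalization. Gene names were taken from a RefSeq table of WBcel235 (45715 transcripts) and from the study's supplementary list (183 more), and 4708 transcripts stayed unnamed. Since the builds differ, no coordinates and no sequences are given.

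The fits were made in R 4.3.3 with edgeR 4.0.16: filterByExpr with a minimum count of 10, TMM, glmQLFit (robust) and glmQLFTest on condition, with Benjamini-Hochberg adjustment. Standard errors are the log2 fold change over the square root of F, and log2 CPM used a prior count of 2. The tests were checked on simulated data. Permutation tests were run in Python 3.11.15. Alternatives were DESeq2 1.42.0, other scalings and filters, counts summed per gene, a replicate block, the stage score as a covariate and each library left out. Following *folt-2* and *F21G4.1* through them was chosen after seeing the data.

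The genes named are *folr-1*, *ztf-11*, the folate uptake genes, list genes at an unadjusted p under 0.05, the transcripts most alike, the neighbours and those next in rank. Others were named after their values were seen. The gene, the lists and the tests were chosen with earlier results of these data known. Same-numbered cultures did not deviate together.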

Additional observations from a re-analysis of the deposited data

Results flagged for a closer look

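Of 78 groups of 4 libraries examined, 7 held 1 library far from the other 3, and chance alone gives this in about 5% of groups. For the stage score, control culture 2 stood at 1.35, with the other controls between 2.96 and 3.23. The same culture was apart for *rei-2*, at 146 CPM with the others between 179 and 185, and for *ugt-23*, at 9.03 CPM with the others between 6.37 and 6.66. Control culture 3 was apart for *folt-1*, at 10.9 CPM with the others between 6.44 and 6.74, and for *phat-6*, at 0.797 CPM with the others between 0.119 and 0.222. Control culture 1 was apart for *F21G4.3*, at 3.88 CPM with the others between 1.77 and 1.97. For *gcp-2.1*, *ztf-11* KD culture 1 had 0.153 CPM and the other *ztf-11* KD cultures were listed at 0. *folr-1* had no library set apart by this measure in either group.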

How the results depend on the processing

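The log2 fold change of *folr-1* stayed between 2.68 (stage score as a covariate) and 3.46 (replicate block) under the alternatives that kept all libraries, and between 2.97 and 3.58 with each library left out. The ratio of mean CPM was 9.54 on library totals, 9.77 on DESeq2's size factors, and 7.89 to 12.2 with each library left out. Its rank by p was 1 in DESeq2, 14 with no filter, 73 with the stage covariate, and 1 to 20 without single libraries. Its rank by fold change was 589 in DESeq2 and 799 with no filter, which both admit more rare transcripts, 3 with at least 10 counts in every library, 94 with the replicate block, and 11 to 176 without single libraries. Transcripts at an adjusted p under 0.1 numbered 435 in DESeq2, 6 with no filter, 4 with the stage covariate (*ztf-11*, *srpr-2.2*, *F57G4.11* and *C33A12.4*), and 0 to 3 without single libraries. The 3, found without control culture 2, were *ztf-11*, *srpr-2.1* and *folr-1*, whose place in this count is no test, since this contrast chose it. Without control culture 3 there were 2, *ztf-11* and *phat-6*.

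One-carbon genes at an unadjusted p under 0.05 numbered 2 on library totals (*folt-2* and *ahcy-1*), 3 with no filter (*folt-2*, *cth-2* and *pmt-1*), and 1 to 2 without single libraries. With the stage covariate the 1 gene was *tyms-1*, with a positive log2 fold change of 0.26 in that fit, and not *folt-2* (0.88, unadjusted p = 0.0545). The adjusted p of *folt-2* ran from 0.112 to 0.706 over the edgeR alternatives and was 0.0142 in DESeq2. Neighbours at an unadjusted p under 0.05 numbered 2 with the stage covariate, *F21G4.1* at 0.60 and *F21G4.5*, whose log2 fold change was −1.12 in that fit. The adjusted p of *F21G4.1* ran from 0.111 to 0.706 over the edgeR alternatives and was 0.00892 in DESeq2. The within-group r of *folr-1* and stage was −0.376 without control culture 2 and ran up to 0.883 without single libraries, reached without *ztf-11* KD culture 4. The causes of these changes were not tested. The labels give same-numbered cultures only a shared number, and their deviations had correlations of 0.0052, −0.30, −0.64 and −0.21. Whether they were handled together is not given, so the replicate block cannot be taken as a pairing.

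Each group holds 4 cultures, and the spread between them, not depth, limits the precision for *folr-1*. *folt-3*, *gcp-2.1* and *C17G1.2* had too few counts to pass the filter and were not tested.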
